A study of Homo sapiens with 4 samples.

Results

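The nuclear genes for subunits of oxidative phosphorylation, 86 of 60605 genes chosen by name and by measured level, were compared between etoposide-treated and DMSO-treated OVCAR3 cells. This process is carried out by 5 multi-subunit complexes of the inner mitochondrial membrane. Complexes I to IV pass electrons from NADH and succinate to oxygen and, all but complex II, pump protons, and complex V (ATP synthase) uses the proton gradient to make ATP. Most of their subunits are encoded in the nucleus, translated in the cytosol and imported, and are assembled with a small set of subunits encoded by the mitochondrial genome. The nuclear subunit genes are transcribed in nearly every cell type, and a few have paralogs restricted to particular tissues.

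OVCAR3 is an established line of epithelial cells from ovarian adenocarcinoma. RNA was sequenced from 2 libraries of etoposide-treated cells (1.7 µM, 24 h) and 2 libraries of DMSO-treated cells (the vehicle). Etoposide is an inhibitor of topoisomerase II that leaves double-strand breaks in DNA. By the treatment protocol given with the samples, nocodazole (100 ng/mL, 16 h) and a release of 3 h came before the treatment, so that the DMSO cells too had been arrested and released, and both groups are of 1 cell line. The labels call the 2 libraries of a group biological replicates without saying whether they came from separate cultures, so that the p-values measure the spread between these libraries only.

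Genes were chosen by name and by a measured value, a gene FPKM of at least 1 as the mean of the 4 libraries. The names were NDUFA, NDUFB, NDUFC, NDUFS or NDUFV with a number, SDHA to SDHD, UQCR, COX4 to COX8 and ATP5 symbols. UQCRFS1, the Rieske iron-sulfur subunit of complex III, was left out by the rule. FPKM counts fragments relative to transcript length and to the total mapped, and was summed over the transcripts of each gene. Of 60605 genes in the files, 189 had such a name, 85 of them protein-coding, and 86 reached the minimum. These 86 members are 79 protein-coding genes and 7 pseudogenes, and all passed the filter of the test. By name, 37 belong to complex I, 4 to complex II, 10 to complex III (8 protein-coding), 14 to complex IV (12 protein-coding) and 21 to complex V (18 protein-coding). The member nearest above the minimum was the pseudogene ATP5MC1P4, with a mean of 1.12 FPKM, and the gene nearest below it was the pseudogene ATP5F1EP2, with 0.799 FPKM. The lowest protein-coding member was NDUFS1 at 5.52 FPKM and the highest was COX6B1 at 466 FPKM, so that the minimum cut through the pseudogenes and the tissue-restricted paralogs and not through the common subunits. In each library the members rested on a median of between 2714 and 4124 read pairs, estimated from the deposited coverage, and the protein-coding members on at least 266.

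The libraries held mapped bases equal to 47.7 and 58.5 M (mega) read pairs in etoposide and 64.5 and 66.5 M in DMSO. Of 10 markers of serous ovarian carcinoma cells, 9 had a mean of at least 1 FPKM, among them PAX8, WT1 and MUC16, while ESR1 was near 0. The 10 summed to 2065 and 2133 FPKM in etoposide and 2986 and 2646 FPKM in DMSO, and the part of this in the results was not tested. Leukocyte and endothelial markers reached 1 FPKM in 0 of 4 and 0 of 3 cases, and the fibroblast collagens COL1A1 and COL1A2 had means of 5.17 and 1.86 FPKM with DCN at 0.0103. DMSO replicate 1 stood apart from the other 3 libraries. Its difference from DMSO replicate 2 followed transcript length (Spearman's rho of 0.317 for replicate 2 minus replicate 1 across 22185 genes) and GC content (rho of −0.340), against 0.0173 and −0.0164 between the etoposide replicates. The members' transcripts are short, with a median length of 799 bases against 2078 bases over all genes tested. The counts, the medians and the members whose value depends on this library are therefore also given without it.

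Beyond their names, the members were compared in promoter sequence. Promoters of nuclear respiratory genes are known for binding sites of NRF1 and of ETS factors such as GABP. RefSeq gives a promoter for 65 of the 86 members, and the 250 bases before each start were searched on both strands for 7 motifs. The NRF1 motif, GCGCA and GCGC with any 1 base between them, was present in 13 of the 65 (20.0%), against 10.98% of the 12322 tested genes with a promoter and 6.20% of all 27305 symbols. The ETS motif CCGGAAG was present in 18 (27.7%), against 17.1% of tested genes and 10.2% of all symbols. Stretches with a motif are shown for members named below, 5′ to 3′ on the gene's strand, with the motif in capitals, which reads CTTCCGG where the ETS motif lies on the opposite strand. The NDUFS1 stretch lies at chr2:206159580-206159609 (−), SDHA at chr5:218154-218240 (+), UQCRH at chr1:46303617-46303697 (+), COX6B1 at chr19:35648233-35648322 (+) and ATP5F1A at chr18:46098327-46098356 (−), all in RefSeq's GRCh38.p14. All 5 stretches lie upstream of the RefSeq start used, and SDHA holds 4 copies of the NRF1 motif in its 250 bases, of which 2 are in the stretch printed.
NDUFS1: tggggccaCTTCCGGcggaactgcgggtcc
SDHA: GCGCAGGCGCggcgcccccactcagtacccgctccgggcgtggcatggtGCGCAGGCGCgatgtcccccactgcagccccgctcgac
UQCRH: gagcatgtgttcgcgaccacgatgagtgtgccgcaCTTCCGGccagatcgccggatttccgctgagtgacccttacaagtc
COX6B1: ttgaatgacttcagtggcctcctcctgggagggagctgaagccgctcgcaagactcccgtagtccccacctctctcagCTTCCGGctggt
ATP5F1A: cgaggggcagtaCTTCCGGgtcaggtgggc

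The remaining motifs were no more frequent in the members than in the tested genes, except the TATA box. The Sp1 motif GGGCGG was in 61.5% of members against 71.7% of tested genes, the CCAAT box (CCAAT) in 35.4% against 40.7%, the TATA box (TATAAA) in 9.23% against 8.62%, the E-box (CACGTG) in 9.23% against 10.9% and the YY1 motif AAGATGGC in 1.54% against 2.25%. Members with and without the NRF1 motif had median log2 fold changes of −0.14 and −0.14 in etoposide over DMSO, and members with and without the ETS motif −0.14 and −0.14. These are matches of letters and do not show binding, and the differences in frequency were not tested. NRF1 and GABP were themselves looked at because of these motifs, and were measured at 5.86 and 5.68 FPKM in etoposide and 6.22 and 6.84 FPKM in DMSO for the gene NRF1 (log2 fold change −0.17), and at 10.2 and 10.2 FPKM against 7.89 and 9.87 FPKM for GABPA, the DNA-binding subunit of GABP (0.20). After a correction for transcript length and GC content, described below, the log2 fold changes were −0.21 for NRF1 and −0.03 for GABPA. Neither gene passed the test.

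**Figure D1:**
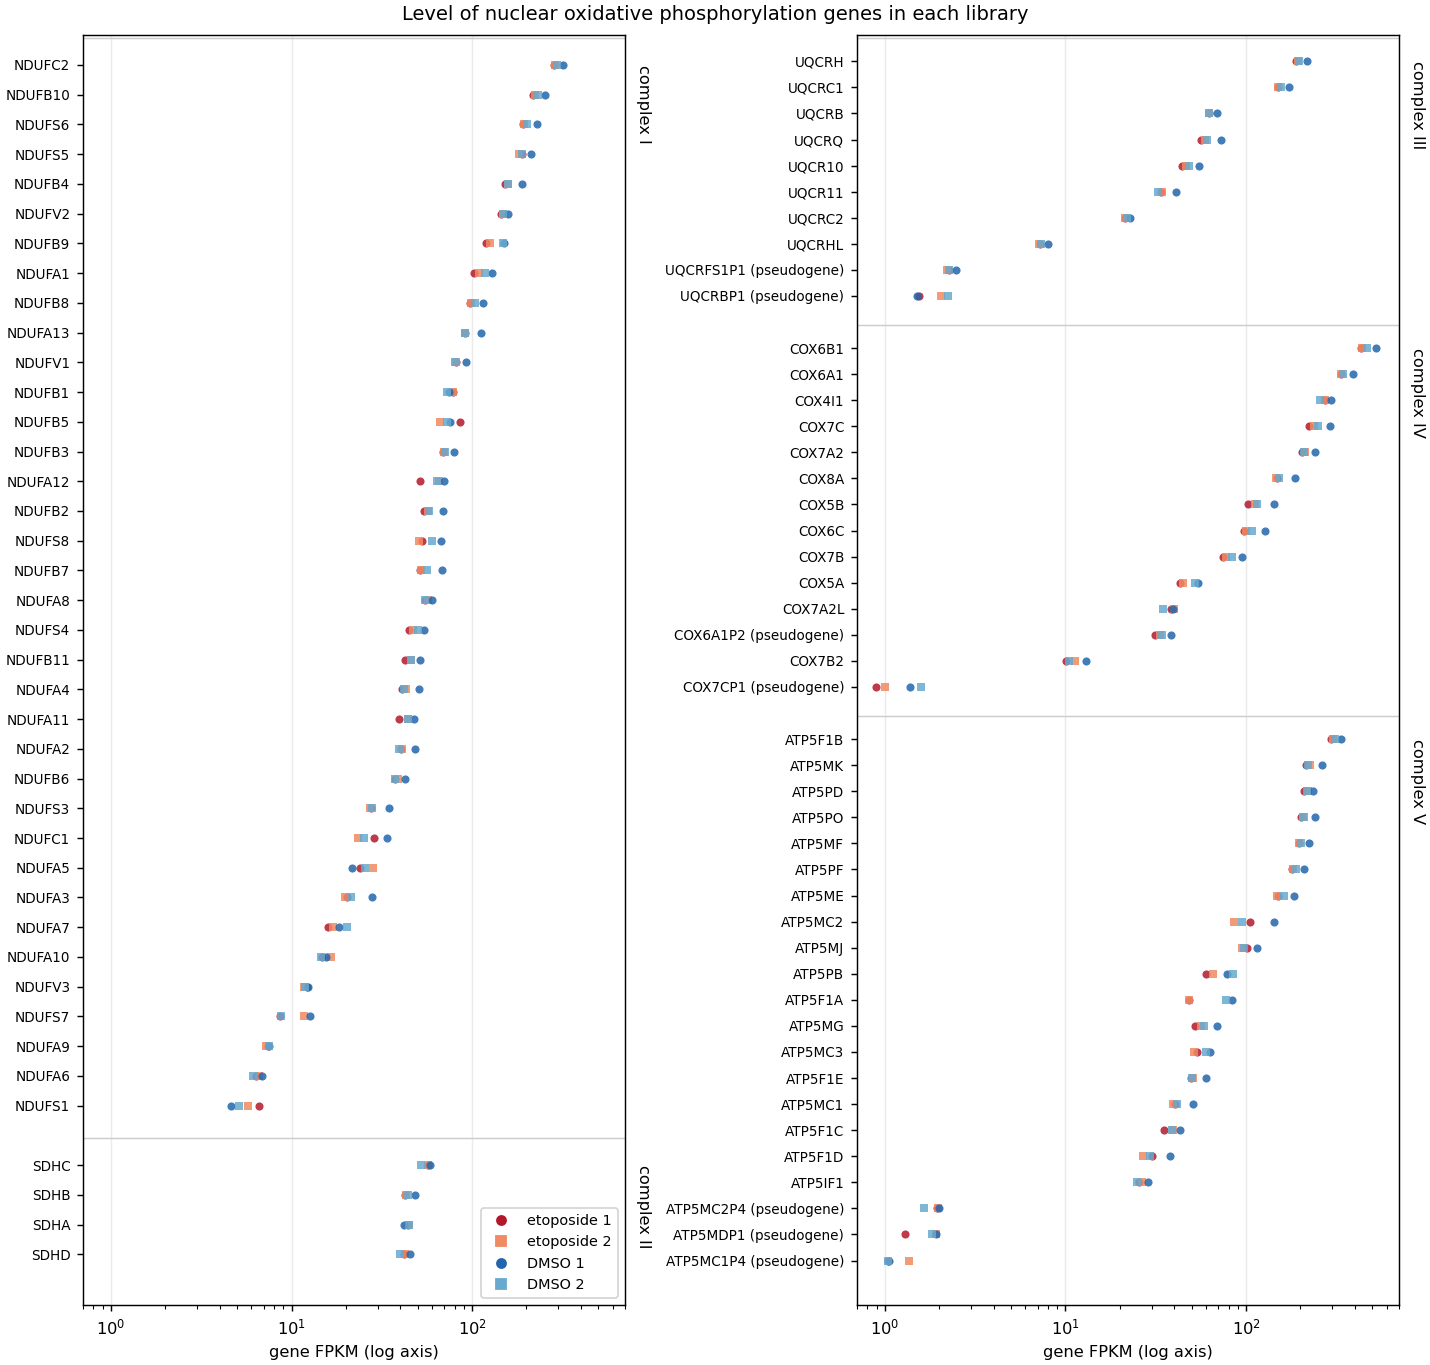
Gene FPKM (log axis) of the members, 1 of the 86 left out, in the 2 etoposide and 2 DMSO libraries, grouped by complex and ordered by mean level. The points of 1 gene lie close together compared with the range between genes, from 1.12 FPKM for ATP5MC1P4 to 466 FPKM for COX6B1, and DMSO replicate 1 has the highest value for 73 of all 86 genes.

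The comparison asked how the etoposide-treated cells differed from the DMSO-treated cells. With limma on log2(FPKM + 0.1) and Benjamini-Hochberg adjustment over 22185 genes, 0 genes passed an adjusted p of 0.05 in either direction (0% of genes tested, lower or higher), and so 0 of the 86 members did. The smallest adjusted p was 0.169, shared by 22 genes of which ATP5F1A was 1. At an unadjusted p under 0.05, 11 members were lower in etoposide, against 4.85% of all genes tested, and 1 was higher, against 7.06%. The 11 are NDUFS8, NDUFB9 and NDUFA1 of complex I, COX5A, COX6C, COX7B and the pseudogene COX7CP1 of complex IV, and ATP5F1A, ATP5PB, ATP5MC3 and ATP5ME of complex V. The 1 is NDUFS1 of complex I. An exact permutation test of 2 libraries against 2 could not give a two-sided p below 0.333.

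The members as a group sat slightly below DMSO. Of the 86, 76 had a log2 fold change below 0, against 43.8% of all genes, and their median was −0.14, a level 0.910 times that of DMSO, against a median of 0.04 over all genes. On TPM the members' median was −0.07 with 65 of 86 below 0, where the median of all genes was 0.10. Among the 79 protein-coding members alone the median was −0.14, with 71 below 0. In 45 members both etoposide libraries were below both DMSO libraries, against 19.0% of all genes, and in 2 (NDUFB1 and NDUFS1) both were above, against 28.9%. The members' summed FPKM was 7447 and 7580 in the etoposide libraries and 8834 and 7826 in the DMSO libraries. As a share of all TPM, which is scaled to the same total in each library, the members took 1.75% and 1.81% in etoposide and 1.95% and 1.81% in DMSO. The share in DMSO replicate 1 thus lay above the other 3, which were close together. In bulk RNA, fewer cells that express a gene and less RNA of it per cell cannot be told apart.

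The size of this difference depended on DMSO replicate 1. That library had the highest FPKM of the 4 for 73 of the 86 members (6545 of the 22185 genes tested) and was above DMSO replicate 2 for 79 of them (49.3% of all genes). As the deviation from each gene's mean over the 4 libraries (log2), the members' medians were −0.08 and −0.05 in etoposide and 0.15 and −0.02 in DMSO. Without DMSO replicate 1 the median log2 fold change of the members was −0.04, with 61 of 86 below 0, against 43.3% of all genes. Without DMSO replicate 2 it was −0.23, and 24 members passed an adjusted p of 0.05, all lower, against 2.66% of all genes. After a loess correction of each library for transcript length and GC content the median was −0.13, with 77 members below 0 against 50.9% of all genes, and 25 members were lower at an unadjusted p under 0.05 against 8.30%. The correction thus left the members' median in place, while the median of all genes went from 0.04 to −0.0043. Without DMSO replicate 1 the members' median moved, and that of all genes was 0.03. With the correction and without that library the members' median was −0.06, with 66 of 86 below 0 against 49.3% of all genes. Whether the state of that library accounts for the members' distance from DMSO was not tested beyond these values.

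**Figure D2:**
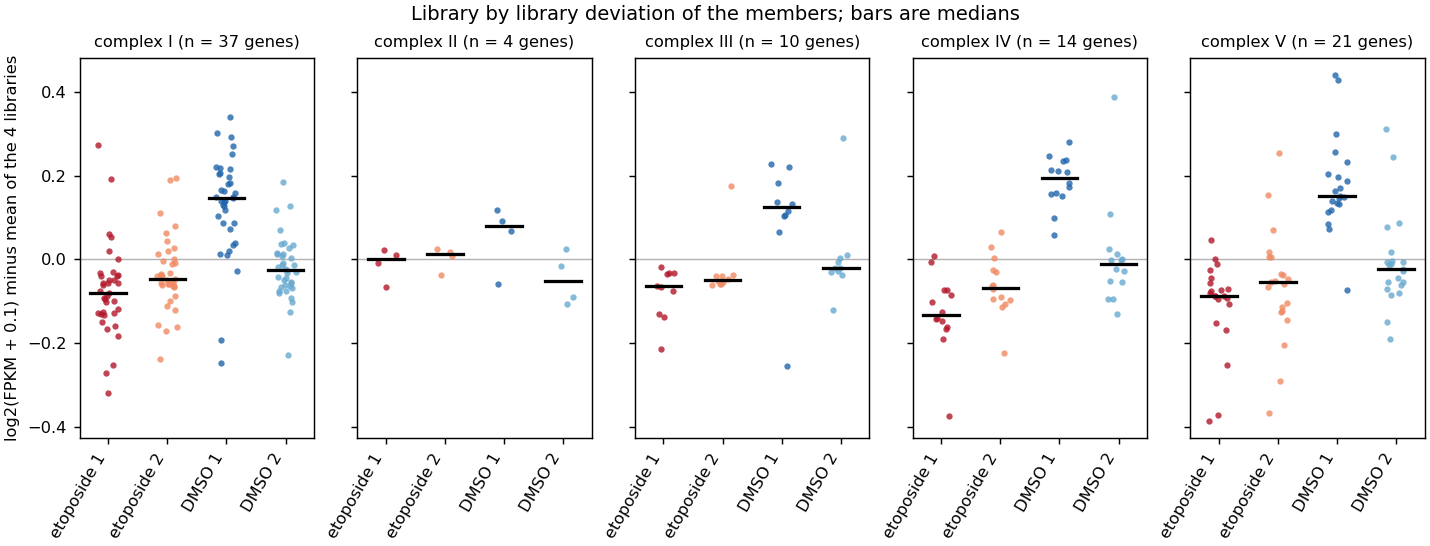
Deviation of each member's log2(FPKM + 0.1) from its mean over the 4 libraries, by library and complex, with medians as bars. DMSO replicate 1 is above the other 3 libraries in every complex (median of all members 0.15), while the other DMSO library (−0.02) lies near the etoposide libraries (−0.08 and −0.05).

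Complex I (NADH:ubiquinone oxidoreductase) takes electrons from NADH. Its 37 members had a median log2 fold change of −0.14. Of these, 32 were below 0, 18 had both etoposide libraries below both DMSO libraries, 3 were lower at an unadjusted p under 0.05 and 1 was higher. Over all genes tested the shares were, in that order, 43.8%, 19.0%, 4.85% and 7.06%. Without DMSO replicate 1 the median of complex I was −0.03, with 23 below 0.

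The most abundant complex I transcripts encode accessory subunits of the membrane arm. NDUFC2 had 285 and 286 FPKM in etoposide, against 318 and 297 FPKM in DMSO, and NDUFB10 had 217 and 222 FPKM against 252 and 233 FPKM. Both had etoposide libraries below both DMSO libraries, and their log2 fold changes were −0.11 ± 0.07 and −0.14 ± 0.07 (SE), with adjusted p-values of 0.548 and 0.466. NDUFC2 was −0.06 and NDUFB10 −0.08 without DMSO replicate 1.

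The catalytic subunits of the peripheral arm were spread over a wide range of levels. NDUFV1, which binds NADH and the flavin, had 81.7 and 81.6 FPKM in etoposide and 92.2 and 80.6 FPKM in DMSO, and the groups overlapped (log2 fold change −0.08, adjusted p = 0.716, and 0.02 without DMSO replicate 1). NDUFS8, which carries iron-sulfur clusters close to the quinone site, had 52.8 and 50.9 FPKM against 66.9 and 60.2 FPKM, without overlap (−0.29 ± 0.08, adjusted p = 0.342). It kept its direction without DMSO replicate 1, at −0.22.

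NDUFS1, the largest subunit of complex I and part of its electron input module, was the highest of the 37 by fold change. It had 6.63 and 5.72 FPKM in etoposide against 4.59 and 5.13 FPKM in DMSO, with both etoposide libraries above both DMSO libraries (0.34 ± 0.12, adjusted p = 0.392). The transcripts of the gene differed between the groups as well. NDUFS1-201 (chr2:206114817-206159444, 11660 bases, of which the last exon is 9460 bases) had 3.79 and 4.13 FPKM in etoposide and 3.93 and 4.53 FPKM in DMSO. NDUFS1-202 (chr2:206123819-206159509, 2631 bases) had 2.65 and 1.17 FPKM in etoposide and 0.282 and 0.237 FPKM in DMSO. Since FPKM divides by transcript length, the same reads weigh more in the shorter transcript. With all bases of the gene divided by 1 fixed length in every library, the log2 fold change of NDUFS1 was 0.03, and over its 17 internal exons the coverage per M read pairs had a median log2 ratio of 0.04, from −0.05 to 0.25.

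NDUFA4 carries a complex I name but its protein is known as a subunit of complex IV. It had 41.1 and 43.0 FPKM in etoposide and 50.9 and 42.1 FPKM in DMSO, and the groups overlapped (−0.14, adjusted p = 0.593). Its log2 fold change was below 0 by less than 0.01 without DMSO replicate 1.

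Complex II (succinate dehydrogenase) is the only one of the 5 with no subunit encoded by the mitochondrial genome, and the median of its 4 genes was nearest to 0 with all 4 libraries on the FPKM scale. SDHA, the flavoprotein that oxidises succinate, had 44.3 and 44.7 FPKM in etoposide, against 42.2 and 44.7 FPKM in DMSO. SDHB, the iron-sulfur subunit, had 42.5 and 43.3 FPKM against 48.2 and 43.98 FPKM, and was the only 1 of the 4 whose etoposide libraries were both below both DMSO libraries. The membrane anchors SDHC and SDHD had 56.9 and 56.7 FPKM in etoposide against 58.7 and 52.1 FPKM in DMSO, and 42.1 and 42.5 FPKM in etoposide against 45.1 and 39.8 FPKM in DMSO.

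Their log2 fold changes were 0.04 (SDHA), −0.10 (SDHB), 0.04 (SDHC) and 0.00 (SDHD, below 0 by less than 0.01), each with an SE of 0.07 to 0.09, and adjusted p-values lay between 0.596 and 0.996. The median of the 4 was 0.02, against −0.14, −0.09, −0.19 and −0.14 in complexes I, III, IV and V. With 4 genes, each measured in the same 4 libraries, the distance of complex II from the other complexes was not tested. The 4 transcripts are also longer than those of the other members, with a median of 1260 bases against 799 over all members. After the length and GC correction the median of complex II was −0.01, against −0.12, −0.13, −0.17 and −0.17 in complexes I, III, IV and V. Without DMSO replicate 1 the median of complex II was 0.04, further from 0 than that of complex I (−0.03). On TPM it was 0.08, against −0.07, −0.02, −0.13 and −0.07 in complexes I, III, IV and V. Without that library SDHA was −0.01, SDHB −0.04, SDHC 0.13 and SDHD 0.09.

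Complex III (ubiquinol:cytochrome c oxidoreductase) passes electrons from ubiquinol to cytochrome c. All 10 of its members had a log2 fold change below 0, in a narrow range of −0.20 to −0.04, and 0 were lower at an unadjusted p under 0.05. Over all genes tested, 43.8% were below 0 and 4.85% were lower at that p. The median of the 10 members was −0.04 without DMSO replicate 1, with 9 below 0. UQCRH, the hinge protein beside cytochrome c1, had 188 and 193 FPKM in etoposide and 218 and 196 FPKM in DMSO. UQCRC1, a core protein on the matrix side, had 149.9 and 150.2 FPKM against 172 and 156 FPKM. In both genes DMSO replicate 1 alone was well above the other 3 libraries, and their log2 fold changes were −0.12 ± 0.08 and −0.13 ± 0.08 (adjusted p of 0.558 and 0.511). UQCRH was −0.04 and UQCRC1 −0.06 without that library.

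The small subunits UQCRQ and UQCR10 had the lowest fold changes of complex III. UQCRQ, which lies next to cytochrome b, had 56.1 and 59.3 FPKM in etoposide and 72.3 and 60.5 FPKM in DMSO (−0.20 ± 0.10, adjusted p = 0.468). UQCR10 had 44.1 and 46.5 FPKM against 54.8 and 48.5 FPKM (−0.19 ± 0.09, adjusted p = 0.451). Without DMSO replicate 1 they were −0.07 and −0.10. The highest was the pseudogene UQCRBP1, with 1.55 and 2.06 FPKM in etoposide and 1.5 and 2.23 FPKM in DMSO, where the groups overlapped (−0.04 ± 0.23, and −0.31 without DMSO replicate 1). CYC1, cytochrome c1, has a name outside the rule and had 69.9 and 68.6 FPKM in etoposide against 88.5 and 75.9 FPKM in DMSO (−0.24).

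Complex IV (cytochrome c oxidase) reduces oxygen, and its nuclear subunits surround 3 catalytic subunits that the mitochondrial genome encodes. It had the lowest median of the 5 complexes with all libraries on the FPKM scale, −0.19 over 14 members. Of these, 13 were below 0 and 10 had both etoposide libraries below both DMSO libraries, against 43.8% and 19.0% of all genes tested. Without DMSO replicate 1 the median of complex IV was −0.09 with 10 below 0. After the length and GC correction it was −0.170, against −0.172 in complex V, which was then the lowest. The difference between complexes was not tested.

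COX6B1, which faces the intermembrane space and holds the complex IV dimer, was the most abundant member of all, with 433 and 436 FPKM in etoposide and 527 and 469 FPKM in DMSO. COX6A1 had 334 and 336 FPKM against 391 and 345 FPKM. In each the etoposide replicates lay within 3 FPKM of each other and the DMSO replicates far apart, with SDs of 1.59 FPKM in etoposide and 40.8 FPKM in DMSO for COX6B1 and of 1.47 FPKM in etoposide and 32.5 FPKM in DMSO for COX6A1. Their log2 fold changes were −0.19 ± 0.08 and −0.14 ± 0.08 (adjusted p of 0.423 and 0.515), and without DMSO replicate 1 COX6B1 was −0.11 and COX6A1 −0.05.

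COX5A, a subunit on the matrix side that is needed for the stability of the complex, had 43.1 and 44.6 FPKM in etoposide against 54.5 and 52.1 FPKM in DMSO. Here both DMSO libraries were above both etoposide libraries and close to each other (−0.28 ± 0.07, adjusted p = 0.331), and without DMSO replicate 1 the value was −0.25. With 1 fixed length for the gene it was −0.19. COX4I1, the ubiquitous form of the largest nuclear subunit, showed no such difference, with 273 and 275 FPKM in etoposide and 294 and 257 FPKM in DMSO (log2 fold change below 0 by less than 0.01, adjusted p = 0.987, −0.11 with 1 fixed length and 0.09 without DMSO replicate 1). COX7A2 had 205 and 212 FPKM against 239.9 and 208 FPKM (−0.10, adjusted p = 0.651), and without DMSO replicate 1 it was within 0.01 of 0.

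COX7A2L, a COX7A relative that is found in respiratory supercomplexes, had the highest fold change of complex IV, with 38.2 and 39.8 FPKM in etoposide against 39.6 and 34.7 FPKM in DMSO (0.07, adjusted p = 0.75), and it was −0.03 with 1 fixed length and 0.17 without DMSO replicate 1. The lowest was the pseudogene COX7CP1, with 0.888 and 0.997 FPKM in etoposide against 1.38 and 1.58 FPKM in DMSO (−0.60 ± 0.16, adjusted p = 0.332). In etoposide replicate 1 that value rested on about 8 read pairs. The reads of COX7C and of this copy may have been split between them in counting, as may those of COX6A1 and COX6A1P2 (8.60% and 9.08% of their sum in etoposide, 8.89% and 9.02% in DMSO).

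Paralogs of complex IV subunits that are known from muscle, lung, testis or other tissues were near 0 in these cells. COX6A2 was at 0 FPKM in all 4 libraries, COX4I2 had a mean of 0.0159, COX8C of 0.0229, COX6B2 of 0.0454 and COX7A1 of 0.259 FPKM. COX7B2, known from testis and some tumours, was the exception at 10.0 and 11.4 FPKM in etoposide and 12.9 and 10.4 FPKM in DMSO, or 11.9% and 12.8% of COX7B and COX7B2 together in etoposide and 11.9% and 11.04% in DMSO. It was singled out after its values were seen. Of the summed FPKM of the 3 COX7A forms, COX7A2L took 15.7% and 15.8% in etoposide and 14.1% and 14.3% in DMSO, and COX7A2 took 84.2% and 84.1% in etoposide and 85.8% and 85.6% in DMSO. On summed FPKM the groups did not overlap in these shares, which differed by less within a group than between the groups. With 1 fixed length per gene, COX7A2L had 37.0 and 38.3 FPKM in etoposide and 38.9 and 37.9 FPKM in DMSO. On that scale COX7A2 had 205 and 210 FPKM against 239 and 212 FPKM. Of COX7A2L's FPKM, 20.1% moved among its transcripts between groups, and up to 39.9% between replicates. Whether the shares differ on the fixed-length scale was not tested.

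Complex V (ATP synthase) has a catalytic F1 head in the matrix, a membrane rotor of c-subunits and a stator. Its 21 members had a median log2 fold change of −0.14, with 19 below 0, 10 with both etoposide libraries below both DMSO libraries and 4 lower at an unadjusted p under 0.05. Over all genes tested the shares were, in that order, 43.8%, 19.0% and 4.85%. Without DMSO replicate 1 the median of complex V was −0.04, with 17 below 0. ATP5F1B, the catalytic beta subunit and the most abundant member of complex V, had 296 and 303 FPKM in etoposide against 336 and 309 FPKM in DMSO (−0.11 ± 0.07, adjusted p = 0.558, and −0.05 without DMSO replicate 1).

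The 3 genes ATP5MC1, ATP5MC2 and ATP5MC3 encode the same mature c-subunit with different import sequences. ATP5MC2 gave 52.9% and 48.7% of their summed FPKM in etoposide and 55.6% and 48.4% in DMSO. It had 105 and 86.1 FPKM in etoposide and 143 and 94.9 FPKM in DMSO, with overlapping groups and the largest spread among the 3. With 1 fixed length for the gene it had 95.9 and 99.3 FPKM against 127 and 107 FPKM, without overlap (−0.26). From summed FPKM its log2 fold change of −0.29 became 0.01 without DMSO replicate 1. ATP5MC3 had 53.6 and 51.3 FPKM against 62.9 and 59.8 FPKM (−0.23 ± 0.07, adjusted p = 0.377), and was −0.19 without that library. ATP5MC1 had 40.2 and 39.2 FPKM against 51.1 and 41.4 FPKM (−0.21, adjusted p = 0.473), and was −0.06 without it.

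ATP5MK, a small membrane subunit needed for dimers of the enzyme, had 216 and 225 FPKM in etoposide and 262 and 221 FPKM in DMSO, with overlap (−0.13), and without DMSO replicate 1 it was within 0.01 of 0. ATP5IF1, the inhibitor that stops ATP hydrolysis by the enzyme, had 25.5 and 26.4 FPKM against 28.5 and 24.8 FPKM, with overlap as well (−0.04, adjusted p = 0.886, and 0.06 without DMSO replicate 1). The highest fold change of complex V was that of the pseudogene ATP5MC1P4, with 1.04 and 1.35 FPKM in etoposide and 1.06 and 1.05 FPKM in DMSO (0.16 ± 0.18).

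**Figure D3:**
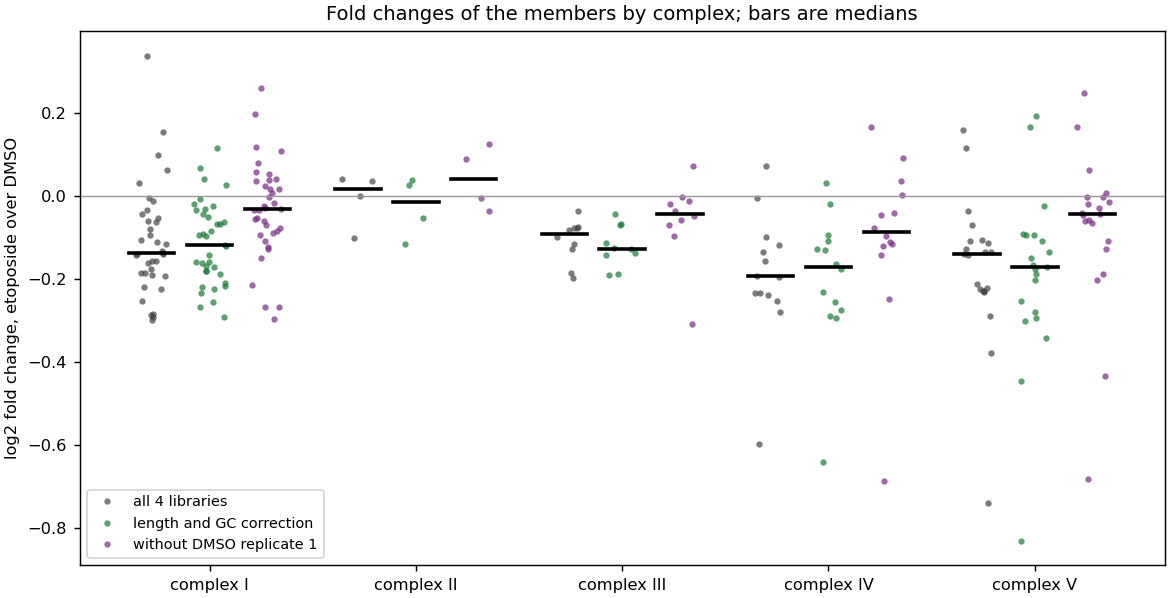
Log2 fold change of each member, etoposide over DMSO, by complex, from all 4 libraries, after the length and GC correction and without DMSO replicate 1, with medians as bars. The medians of complexes I, III, IV and V lie between −0.19 and −0.09 with all libraries and between −0.09 and −0.03 without DMSO replicate 1, and the median of complex II is 0.02 with all libraries and 0.04 without DMSO replicate 1.

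ATP5F1A, the alpha subunit that pairs with ATP5F1B in the F1 head, was the member with the smallest p and ranked 5 by p among all 22185 genes. Its gene FPKM was 48.2 and 48.3 in etoposide and 83.9 and 77.4 in DMSO, without overlap and with replicates close together in each group (−0.74 ± 0.08, adjusted p = 0.169). It was −0.68 without DMSO replicate 1. Leaving out an etoposide library brought its adjusted p to 0.0289 (without replicate 1) or 0.0290 (without replicate 2), each time as the only member called, where, in that order, 0.297% and 0.270% of all genes were called lower.

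The groups also differed in the transcripts to which reads were assigned. ATP5F1A-202 (chr18:46080248-46098296, 5761 bases) had 44.1 and 45.7 FPKM in etoposide and 29.9 and 30.1 FPKM in DMSO. ATP5F1A-220 (chr18:46084144-46098353, 2258 bases) had 0.157 and 0.158 FPKM in etoposide and 35.3 and 24.4 FPKM in DMSO. ATP5F1A-205, a transcript of 2214 bases annotated as a target of nonsense-mediated decay, was listed at 0 and 0 FPKM in etoposide and had 16.6 and 21.5 FPKM in DMSO.

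The 3 transcripts have the same 10 internal exons of ATP5F1A-202 and differ at their ends. Between the groups 60.3% of the gene's FPKM moved from one transcript to another, against at most 11.6% between replicates. Summed over the transcripts that hold them and scaled per M read pairs, the internal exons had a mean coverage of 29.5 and 30.5 in etoposide and 33.3 and 32.0 in DMSO, and their log2 ratios ran from −0.24 to 0.03 with a median of −0.15. The last exon of ATP5F1A-202 (chr18:46080248-46084363, 4116 bases) had a coverage of 0.950 and 1.01 per M read pairs in etoposide and 0.717 and 0.662 in DMSO, far below the internal exon before it, with 24.9 and 25.8 in etoposide and 30.9 and 27.7 in DMSO. The first exon of ATP5F1A-202 had 8.23 and 8.56 in etoposide and 4.89 and 5.30 in DMSO.

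Most of the length of ATP5F1A-202 thus had little coverage in any library, and an FPKM divides by that length. Most of the gene's reads were nevertheless assigned to ATP5F1A-202 in every library, with a larger share in etoposide than in DMSO. With 1 fixed length for the gene in every library the log2 fold change was −0.11, near the −0.12 that the members had as a median on that scale. What made the assignment differ between the groups was not tested.

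**Figure D4:**
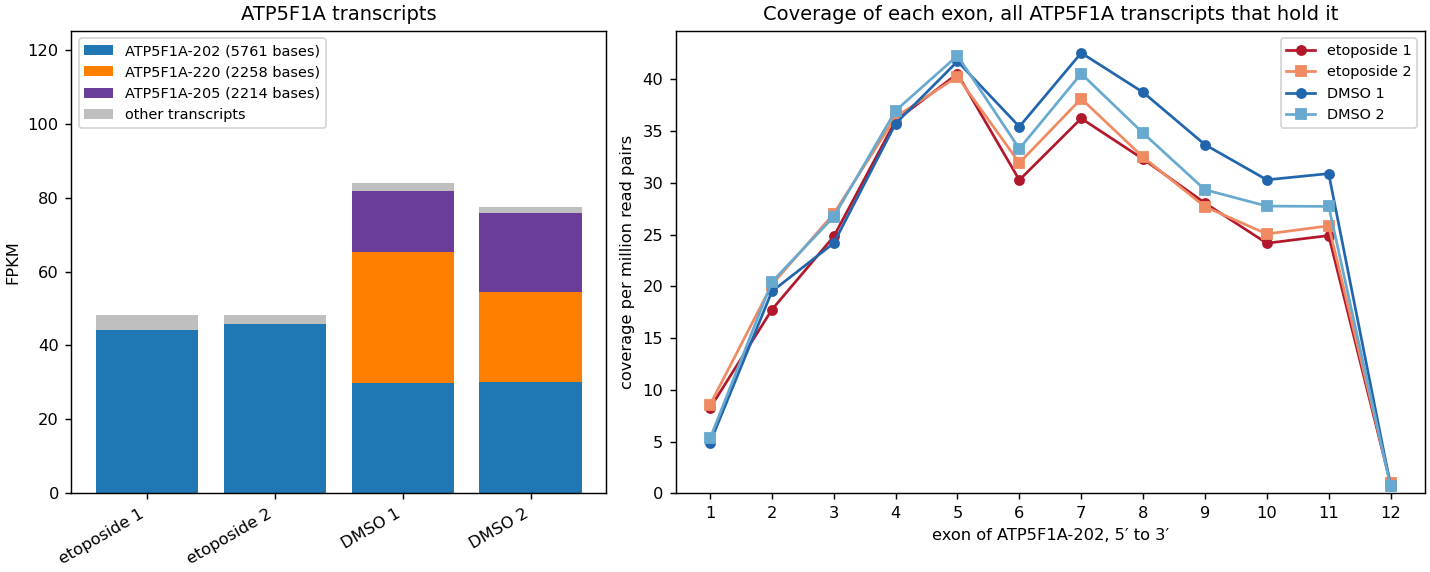
Left, FPKM of ATP5F1A in each library, stacked by transcript. Right, coverage per M read pairs of each exon of ATP5F1A-202, summed over the ATP5F1A transcripts that hold that exon. The gene's FPKM of 48.2 and 48.3 in etoposide and 83.9 and 77.4 in DMSO comes with a different transcript make-up, whereas over the internal exons the coverage of the 4 libraries lies close together. In exon 1 the etoposide libraries (8.23 and 8.56) lie above the DMSO libraries (4.89 and 5.30), and in exon 12 all 4 are near 1 or below.

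ATP5PB, the b subunit of the stator, showed the same kind of shift on a smaller scale. Its gene FPKM was 59.98 and 65.5 in etoposide against 78.5 and 84.7 in DMSO (−0.38 ± 0.08, adjusted p = 0.298). ATP5PB-202 (chr1:111449464-111462773, 2628 bases) had 48.8 and 44.7 FPKM in etoposide and 45.1 and 35.9 FPKM in DMSO, while the shorter ATP5PB-201 (chr1:111449465-111461332, 1040 bases) had 8.80 and 17.1 FPKM against 25.1 and 36.9 FPKM. Its 5 internal exons had a mean coverage per M read pairs of 28.7 and 28.1 in etoposide and 30.04 and 29.0 in DMSO, and with 1 fixed length the log2 fold change was −0.08.

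Over the members, summed FPKM and 1 fixed length mostly gave the same value: 65 of 86 log2 fold changes differed by less than 0.05 and 5 by more than 0.2 (ATP5F1A, ATP5PB, NDUFS1, NDUFB9 and NDUFB1). NDUFB9 and NDUFB1, both accessory subunits of complex I, were singled out by this difference, at −0.28 and 0.10 from summed FPKM and −0.05 and −0.11 with 1 fixed length. In 15 of the 86 members the transcript shares moved further between the groups than between replicates. Over the 86 the median moved was 3.85% between groups and 6.71% between replicates. The first compares group means, and the second takes the larger of the replicate differences in etoposide and in DMSO. The second therefore tends to be larger, and members with 1 transcript cannot move in either. On the fixed-length scale 80 of 86 members had a log2 fold change below 0, against 45.6% of all genes, and the median was −0.12. The median was thus nearly the same on both scales, whereas the outlying fold changes of ATP5F1A and ATP5PB were found on the summed scale and not with 1 fixed length.

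**Figure D5:**
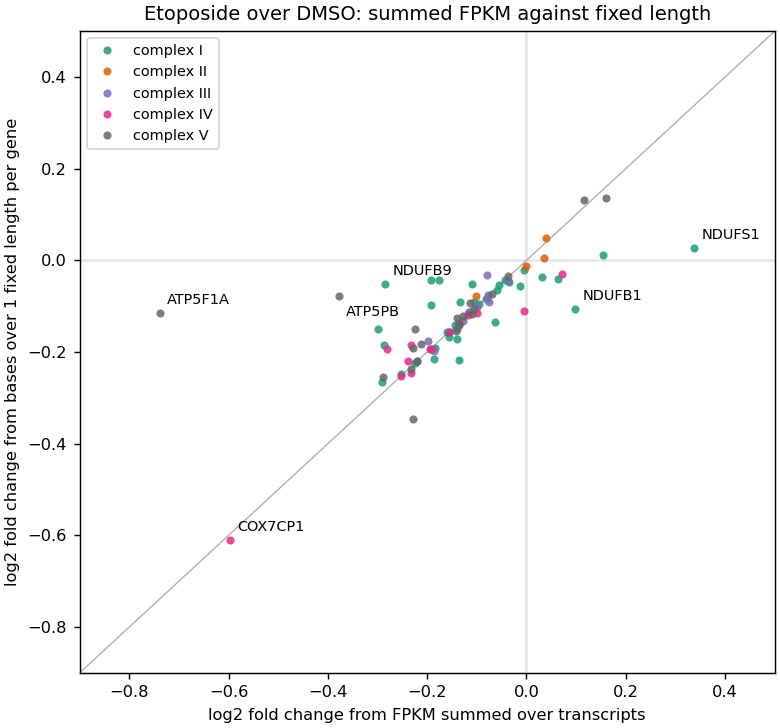
Log2 fold change of each member, etoposide over DMSO, from FPKM summed over transcripts (horizontal) and from bases divided by 1 fixed length per gene (vertical), coloured by complex. Most genes lie on the diagonal. ATP5F1A (−0.74 and −0.11), ATP5PB (−0.38 and −0.08) and NDUFS1 (0.34 and 0.03) lie off it. The pseudogene COX7CP1 (−0.60 and −0.61) has 1 transcript, so that the scales could hardly differ for it.

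Genes that work with these subunits lay closer to 0, or in the same small range. Of the 13 subunits encoded by the mitochondrial genome, 12 were below 0, with a median of −0.08, and they ran from MT-ND4 (7765 and 7069 FPKM in etoposide against 8665 and 7646 in DMSO, −0.14) to MT-ATP8 (8112 and 7542 against 8027 and 7583, 0.00). All 13 were also higher in DMSO replicate 1 than in DMSO replicate 2. Without DMSO replicate 1, 7 of the 13 were below 0, with a median of −0.01.

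Assembly factors, which build the complexes but are not part of them, were below 0 in 10 of 16 for complex I (median −0.04), 2 of 4 for complex II (0.02), 3 of 6 for complex III (−0.02), 16 of 23 for complex IV (−0.05) and 4 of 5 for complex V (−0.05). Of the 54, 4 were lower at an unadjusted p under 0.05, against 4.85% of all genes tested. The medians without DMSO replicate 1 for complexes I, II, IV and V were above 0, in that order at 0.01 (7 of 16 below 0), 0.11 (0 of 4), 0.0063 (11 of 23) and 0.02 (2 of 5), and that for complex III was −0.0033 (3 of 6). The lowest was CMC2, a complex IV biogenesis factor, with 5.68 and 4.22 FPKM in etoposide against 6.33 and 7.05 FPKM in DMSO (−0.44, but −0.08 with 1 fixed length). NDUFAF3, a complex I assembly factor, had 14.5 and 15.5 FPKM against 20.4 and 17.6 FPKM (−0.33, and −0.34 with 1 fixed length).

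Electron carriers and coenzyme Q synthesis genes were below 0 in 11 of 15 (median −0.09), and those of the tricarboxylic acid cycle in 8 of 14 (−0.05), with 0 of either list at an unadjusted p under 0.05. Over all genes tested, 4.85% were lower and 7.06% higher at that p. With DMSO replicate 1 left out the first list had a median of −0.05 (10 of 15 below 0) and the second of 0.0059 (6 of 14). Of 12 regulators of mitochondrial biogenesis 3 were below 0 (median 0.05), but 8 of 12 after the length and GC correction (median −0.04), and without DMSO replicate 1 the count was 5 (median 0.01). The highest was TFAM, which packages mitochondrial DNA and takes part in its transcription. It had 18.1 and 18.4 FPKM in etoposide against 14.6 and 16.4 FPKM in DMSO (0.24 ± 0.09, adjusted p = 0.405). Its value was 0.01 after the length and GC correction. The lowest was POLRMT, the mitochondrial RNA polymerase (−0.20).

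Ribosomal protein genes, which like the members have short and abundant transcripts, had medians between that of all genes and that of the members. Of the mitochondrial ribosomal proteins 56 of 78 were below 0 (median −0.05), and of the cytosolic ribosomal proteins tested 72 of 83 (median −0.11). Both etoposide libraries were below both DMSO libraries in 29 of the 78 and 29 of the 83, against 19.0% of all genes tested. Cytosolic ribosomal protein genes were higher in DMSO replicate 1 than in replicate 2 in 80 of 83 cases, and without DMSO replicate 1 their median was −0.01, as was that of the mitochondrial ribosomal proteins. Whether the members differ from the ribosomal protein genes was not tested. Spearman's rho of the log2 fold change over the 86 members was 0.237 against transcript length, −0.178 against GC content and −0.242 against mean FPKM, as a description of genes that share the same 4 libraries.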

How the data were processed

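RNA of 2 etoposide-treated and 2 DMSO-treated OVCAR3 libraries (stranded mRNA kit, paired reads) was mapped to GRCh38 by the authors with HISAT2, sorted with SAMtools and quantified with StringTie 2.1.7 on Ensembl 104. The file headers give no strand option, so that overlapping antisense genes may not have been told apart. The deposited files hold coverage, FPKM and TPM of 236853 transcripts, as made by the authors. Gene counts were not used here. Read pairs were estimated from coverage as bases over 200. An FPKM depends on the length of the transcript to which a read was assigned, and therefore on that assignment.

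FPKM was summed per gene, and limma 3.58.1 (R 4.3.3) was fitted to log2(FPKM + 0.1) of the 22185 genes whose FPKM averaged 0.1 or more, with a variance trend, robust fitting and Benjamini-Hochberg adjustment. The fit was tested on simulated data. Fold changes are on that scale, which understates those of low genes. Gene types were those of GENCODE 44, and the length and GC correction was a loess fit (span 0.3). Figures were drawn with matplotlib 3.10.9.

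The members and gene lists were chosen with earlier results of these data known. Named with full values are, in each complex, the 2 members of highest level, the 2 of lowest and the 1 of highest log2 fold change, a set of catalytic subunits and paralogs, and the genes nearest the minimum. Of other lists the extremes are named. NDUFB9, NDUFB1, COX7B2, NRF1, GABPA and the remaining genes with an unadjusted p under 0.05 fall outside that rule and were named after their values were seen. The alternatives were pseudocounts of 1 and 0.01, a minimum of 1 or none, TPM, median-of-ratios scaling, voom, no variance trend, the correction, a replicate block and each library left out. Chosen after seeing the data were 1 fixed length per gene, protein-coding members alone and the correction without DMSO replicate 1. In the study's text the sequenced cells are called transfected, a step that the labels do not name. The values of 1 member are not reported here, though it is in every count and median.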

Additional observations from a re-analysis of the deposited data

How the results depend on the processing

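The genes passing an adjusted p of 0.05 numbered 6 after the length and GC correction, 5 after that correction without DMSO replicate 1, and between 5 and 1934 with 1 library left out, where a group has 1 library that is assumed to vary like the others. The members among them were 24 without DMSO replicate 2, 1 (ATP5F1A) without either etoposide library and 0 without DMSO replicate 1. With 1 library left out, the median log2 fold change ran from −0.23 to −0.038 over all members, −0.21 to −0.032 in complex I, −0.069 to 0.041 in complex II, −0.175 to −0.043 in complex III, −0.30 to −0.087 in complex IV and −0.25 to −0.044 in complex V. In complex II it was 0.084 on TPM. The members lower at an unadjusted p under 0.05 numbered 6 on TPM, 7 on TPM without the mitochondrial genome, 4 with voom, 25 after the correction, 19 with median-of-ratios scaling, 3 with no variance trend, and 1 to 56 with 1 library left out. The members higher numbered 2 on TPM with or without the mitochondrial genome, 0 with voom, after the correction with or without DMSO replicate 1, with no variance trend and with 1 fixed length, and 0 to 3 with 1 library left out. Those with both etoposide libraries below both DMSO libraries numbered 27 on TPM with or without the mitochondrial genome, and 46 to 76 with 1 library left out. The share of all genes at these thresholds was not worked out for each setting, so that the counts show only their dependence on it. Of all genes, 34.1% were below 0 on TPM and 49.5% with median-of-ratios scaling, against 43.8% in the main fit. With the replicate block 12 members were lower and 1 higher, and with the block and the correction 23 and 0. The block changed no call of a named member, and same-numbered libraries did not deviate together (correlation 0.0133).

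Of 32 members under the rule for naming, 21 changed sign in none of 18 settings. Signs turned on TPM in ATP5IF1 (0.0295), COX4I1 (0.063), SDHD (0.066) and UQCRBP1 (0.028), and without the mitochondrial genome ATP5IF1 was 0.0197, COX4I1 0.053, SDHD 0.056 and UQCRBP1 0.019. After the correction COX4I1 was 0.031 and COX7A2L −0.019, with the replicate block or without it. After the correction without DMSO replicate 1, ATP5IF1 was 0.033, COX4I1 0.077, NDUFV1 0.015, SDHA −0.026 and SDHD 0.051. COX7A2L was −0.025 with voom and −0.029 with 1 fixed length, and SDHA was −0.00096 with median-of-ratios scaling. With 1 library left out the values ran from −0.14 to 0.062 in ATP5IF1, −0.014 to 0.33 in ATP5MC1P4, −0.58 to 0.0063 in ATP5MC2, −0.10 to 0.092 in COX4I1, −0.20 to 0.0032 in COX7A2, −0.021 to 0.17 in COX7A2L, −0.18 to 0.018 in NDUFV1, −0.0055 to 0.078 in SDHA, −0.047 to 0.13 in SDHC, −0.091 to 0.088 in SDHD and −0.31 to 0.24 in UQCRBP1. The adjusted p of ATP5F1A ran from 0.0289 to 0.621 over its alternatives. The cause of these changes was not tested, and 2 libraries a group limit the precision of every value.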
